A study of Mus musculus with 8 samples.

Results

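The 38 genes described here carry out fat and sterol absorption in the intestine and the packaging of lipid into lipoproteins. They were chosen by name and function, from uptake and binding of fatty acids through triglyceride synthesis, lipid droplets and lipases to apolipoproteins and their regulators, and each was read from the array probe that carries its symbol. All 38 had a probe, out of 36161 names on the array, and all 38 passed the filter on dim probes, against 23259 names in all. Total RNA was taken from the small intestine of mice harvested as embryos at E18.5. The 4 control samples are labelled Rfx6+/+ and were wild-type, and the 4 knockout samples are labelled Rfx6-/-. Rfx6-/- embryos came from crosses between Rfx6+/- heterozygotes, themselves made from a floxed allele with CMV-Cre, which acts throughout the body, so the gene was deleted in all tissues of these embryos and not in the gut alone. Neither strain, sex nor litter is given in the labels, and nothing says whether a sample is 1 embryo or a pool, so p-values measure the spread between these samples only.

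Rfx6 is a transcription factor known for its role in hormone-producing cells of the gut and pancreas. Absorptive enterocytes, by contrast, take up fatty acids and monoglycerides, bind them in the cytosol, rebuild triglycerides in the endoplasmic reticulum and load them with cholesterol onto apolipoprotein B to make chylomicrons. Fat that is not exported is kept in lipid droplets, and nuclear receptors of the PPAR family and the membrane-bound factor CREB3L3 regulate many of these genes. Late in gestation the gut makes this machinery ready for the fat of milk.

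The samples were measured on 8 single-colour arrays of 1 slide, read in 1 scan. A level here is log2 of the background-subtracted signal minus the 75th percentile of that array, so 0 is the level of the probe at that percentile, and levels of different genes are not compared. That percentile was 636 to 741 units before scaling, and 57.5% to 67.1% of the probes on an array exceeded background clearly by the scanner software's test. The single Rfx6 probe starts at base 3337 of its transcript and was well above background on 8 of 8 arrays, with means of -3.14 ± 0.40 in the controls and -2.76 ± 0.56 in the knockouts (SD, n = 4 each; exact permutation p 0.2857, two-sided). The labels do not say which part of the gene was deleted, so this probe checks nothing about the labels. The intestinal markers Cdx1, Cdx2 and Vil1 were well above background on all 8 arrays.

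Lipid genes were lower on the knockout arrays in most steps of the pathway. Of the 38, 15 fell and 0 rose (limma, Benjamini-Hochberg adjusted p under 0.05 over all genes tested), where 4.92% of all genes tested passed, 2.6% lower and 2.32% higher. At an unadjusted p under 0.05, 23 of the 38 were lower and 1 was higher, against 12.8% and 7.65% of all genes. The falls ran from 1.34-fold to 3.10-fold and only that of Scd1 was beyond 1 log2 unit. The median difference of the 38 was -0.41 log2 units, against -0.05 for all genes tested. Whatever the p-value, 28 of the 38 lay below 0 and 10 above, against 14084 and 9175 of the 23259 genes tested. For 20 members every knockout array lay below every control array, as it did for 9.23% of all genes, and for 1 member, Pparg, every knockout array lay above, as for 5.35% of all genes. In whole tissue, fewer cells of a type and less RNA per cell cannot be told apart. The number of calls was sensitive to the arrays used: without control array 1 or 3, or knockout array 1, 6 members passed, without control array 4 there were 8, without knockout array 2 there were 5, and without knockout array 4 there were 9. It was also sensitive to scaling, since quantile normalization left 5 members lower and median centring 6. Over all genes, 604 fell and 540 rose, while median centring gave 253 and 541.

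**Figure D1:**
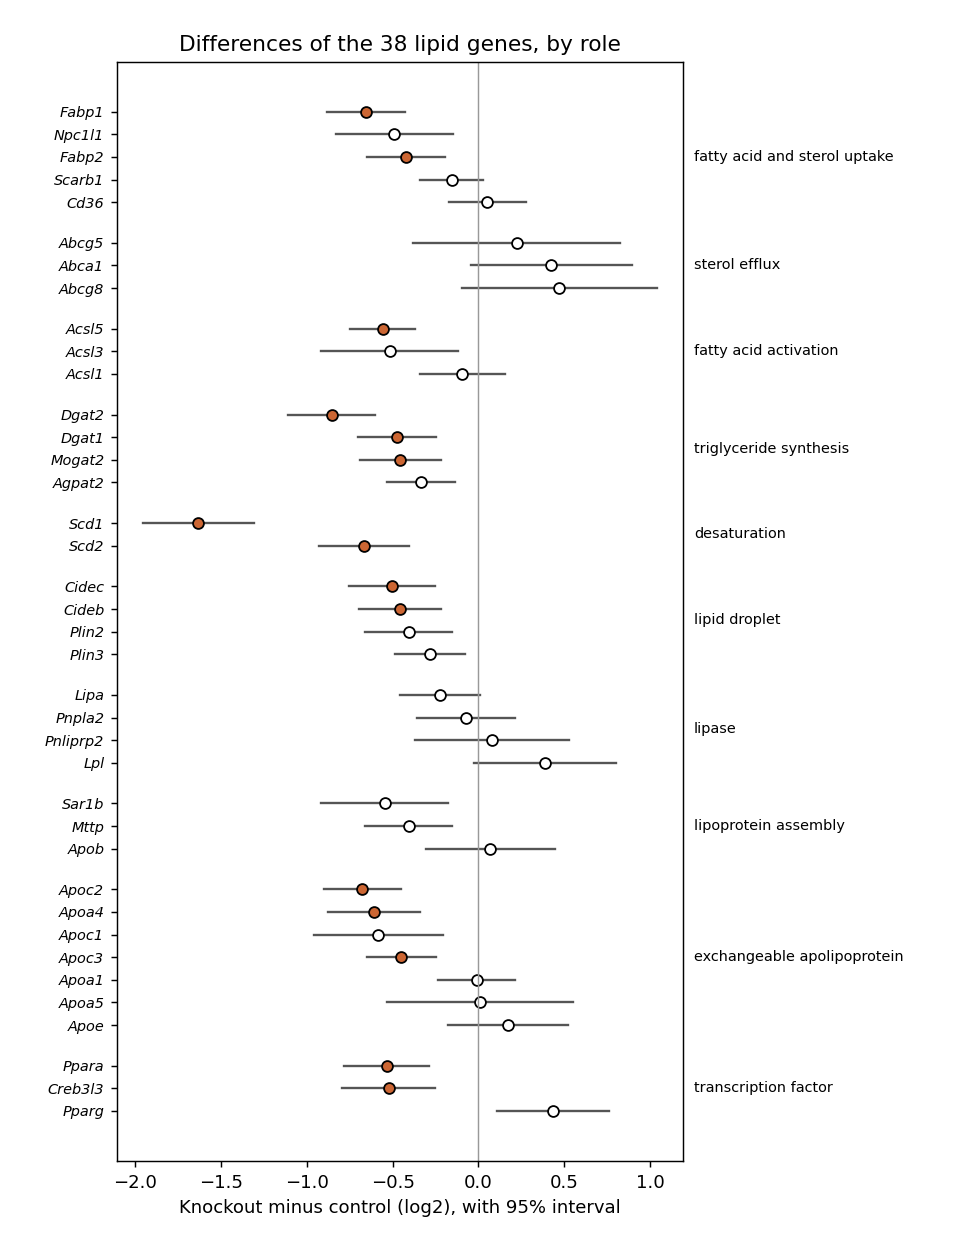
Knockout minus control difference of each of the 38 lipid genes in log2 units (x axis), grouped by role (right), with the 95% interval of the limma fit as a bar. Filled points passed the adjusted threshold; all 15 filled points lie below 0, from -1.63 for Scd1 to -0.42 for Fabp2, while the 3 sterol efflux genes lie above 0 and did not pass.

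The promoter windows of 4 members are shown first, because Fabp1 and Apoc2 are among the larger falls, and Apoa4 and Apoa1 lie in 1 gene cluster but gave different values. Sequences are from RefSeq on GRCm38.p6, 5′ to 3′ on the gene's own strand, and hold the 250 bases before the annotated start. Capitals mark matches to the motifs searched, which are described with their counts further on.
Fabp1, plus strand, chr6:71199629-71199878: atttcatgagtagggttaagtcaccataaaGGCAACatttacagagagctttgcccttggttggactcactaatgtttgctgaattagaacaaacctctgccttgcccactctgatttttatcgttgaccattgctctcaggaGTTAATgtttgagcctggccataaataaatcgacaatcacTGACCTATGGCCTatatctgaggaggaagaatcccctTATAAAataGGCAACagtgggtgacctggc
Apoc2, minus strand, chr7:19677942-19678191: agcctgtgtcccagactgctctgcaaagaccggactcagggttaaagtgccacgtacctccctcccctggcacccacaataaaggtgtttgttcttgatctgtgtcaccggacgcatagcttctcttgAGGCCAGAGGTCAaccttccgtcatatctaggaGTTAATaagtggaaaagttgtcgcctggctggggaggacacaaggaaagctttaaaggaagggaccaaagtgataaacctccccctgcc
Apoa4, plus strand, chr9:46240594-46240843: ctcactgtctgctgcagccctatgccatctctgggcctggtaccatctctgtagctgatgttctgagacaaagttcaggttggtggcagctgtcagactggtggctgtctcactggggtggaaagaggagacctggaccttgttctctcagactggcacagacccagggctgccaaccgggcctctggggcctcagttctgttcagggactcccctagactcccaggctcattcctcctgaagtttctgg
Apoa1, plus strand, chr9:46228380-46228629: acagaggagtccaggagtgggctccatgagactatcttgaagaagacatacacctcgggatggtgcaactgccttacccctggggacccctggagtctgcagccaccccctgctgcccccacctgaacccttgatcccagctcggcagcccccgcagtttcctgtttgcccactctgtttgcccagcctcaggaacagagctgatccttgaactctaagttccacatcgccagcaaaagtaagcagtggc

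The desaturases gave the largest difference of the whole set. Both members fell. Scd1, which makes monounsaturated fatty acids from saturated ones (probe at chromosome 19, 44469387 to 44469446 on mm9), stood at 0.71, 0.59, 0.18 and 0.31 on control arrays 1 to 4 and at -1.03, -1.28, -1.41 and -1.02 on knockout arrays 1 to 4. The groups did not overlap, and the gap between them was wider than either group's range. Scd1 fell 3.10-fold, a difference of -1.63 (standard error 0.14, limma adjusted p 0.000437). Scd2, its paralog, was at 7.76, 7.42, 7.64 and 7.53 on control and at 7.04, 6.76, 6.76 and 7.12 on knockout arrays. Every knockout array was below every control array, and the difference was -0.67 (standard error 0.12, limma adjusted p 0.0138); without knockout array 2 the limma adjusted p was 0.0501. Knockout arrays 2 and 3 were the lowest for both desaturases.

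Triglyceride synthesis was lower at the acyltransferase steps, with 3 of 4 members past the threshold and all 4 below 0. Dgat2, an enzyme of the last step that turns diacylglycerol into triglyceride (chromosome 7, 106302215 to 106302274 on mm9), stood at 8.09, 7.87, 8.15 and 7.96 on control and at 7.11, 6.95, 7.40 and 7.18 on knockout arrays. The groups were separate by a wide margin, and Dgat2 fell 1.81-fold, a difference of -0.85 (standard error 0.11, limma adjusted p 0.00375). Dgat1 catalyses the same reaction and is structurally unrelated. Its levels were 4.17, 3.91, 4.06 and 4.13 on control and 3.58, 3.41, 3.79 and 3.60 on knockout arrays, a difference of -0.47 (standard error 0.10, limma adjusted p 0.0322). Mogat2, which acylates the monoglycerides absorbed from the gut lumen, was at 7.46, 7.16, 7.38 and 7.41 on control and at 6.79, 6.74, 7.07 and 6.98 on knockout arrays (difference -0.46, limma adjusted p 0.0426). For Mogat2 the highest knockout array, number 3, came within a short distance of control array 2, the lowest control. Agpat2, an enzyme of the glycerol phosphate route, differed by -0.33 (95% interval -0.53 to -0.14) and did not pass, with a limma adjusted p of 0.0679. Without any 1 of control arrays 1, 3 and 4 or knockout arrays 1, 2 and 4, neither Dgat1 nor Mogat2 passed, with limma adjusted p from 0.0639 to 0.111 and from 0.0627 to 0.145.

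Fatty acid activation, the coupling of fatty acids to coenzyme A, was lower for 1 of 3 synthetases. Acsl5 was at 6.54, 6.35, 6.46 and 6.44 on control and at 5.84, 5.76, 5.98 and 5.98 on knockout arrays. Both groups were tight and clearly apart, with a difference of -0.56 (standard error 0.08, limma adjusted p 0.00752). Acsl3 differed by -0.52 (95% interval -0.91 to -0.12, limma adjusted p 0.142), and knockout array 4, at 2.43, lay among the controls. Acsl1 differed by -0.09 (95% interval -0.34 to 0.15).

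Among the uptake and binding genes the cytosolic binding proteins fell, and the membrane proteins did not pass. Fabp1, the liver-type fatty acid binding protein also abundant in enterocytes (chromosome 6, 71154906 to 71154965 on mm9), stood at 8.87, 8.93, 9.05 and 8.80 on control and at 8.15, 8.09, 8.36 and 8.42 on knockout arrays. No array of one group reached the other, and Fabp1 fell 1.57-fold, a difference of -0.65 (standard error 0.10, limma adjusted p 0.00794). Fabp2, the intestinal form, was at 9.35, 9.49, 9.51 and 9.41 on control and at 8.83, 8.93, 9.09 and 9.22 on knockout arrays. It fell by 0.42 on the log2 scale, the smallest of the 15 falls, with a limma adjusted p of 0.0484. Leaving out any 1 array other than knockout array 4 ended that call (limma adjusted p 0.0815 to 0.149). Npc1l1, the cholesterol importer of the brush border, differed by -0.49 (95% interval -0.83 to -0.15, limma adjusted p 0.106). Control array 2, at 3.02, was as low as the knockout arrays for Npc1l1, and without that array the limma adjusted p was 0.0193. Scarb1, a lipoprotein and lipid receptor, differed by -0.16 (95% interval -0.34 to 0.03). For Cd36, a fatty acid translocase, the difference was 0.05 (95% interval -0.17 to 0.28).

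Sterol efflux was the role whose members all lay above 0, though none of the 3 passed. Abcg8, which with Abcg5 forms the transporter that returns plant sterols and cholesterol to the lumen, gave the widest difference here over all 8 arrays. Its levels were -1.67, -2.30, -1.10 and -1.28 on control and -1.14, -0.77, -1.17 and -1.39 on knockout arrays. These ranges overlapped, and the difference of 0.47 (95% interval -0.09 to 1.04) had a limma adjusted p of 0.329; without control array 2, its lowest, the difference was 0.23, below that of Abca1 at 0.31. Abcg5 was at 2.91 on control array 2, against 3.77 to 4.09 on the other controls, and differed by 0.22 (95% interval -0.38 to 0.82); without that array the difference was -0.03. Abca1, which exports cholesterol to apolipoprotein A-I, differed by 0.42 (95% interval -0.05 to 0.89). The intervals for these 3 genes reach falls of 0.38 log2 units at most, so falls of the size seen for the desaturases or Dgat2 lie outside them.

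Lipid droplet proteins were lower in 2 of 4 cases, and all 4 members had every knockout array below every control array. Such separation was seen for 9.23% of all genes tested. Cidec, which promotes fusion of droplets, was at 4.20, 3.85, 4.11 and 4.11 on control and at 3.57, 3.46, 3.78 and 3.43 on knockout arrays. The groups came closest between control array 2 and knockout array 3, and the difference was -0.50 (standard error 0.11, limma adjusted p 0.0359). Cideb, its relative in droplet and lipoprotein loading, was at 6.03, 5.71, 5.74 and 5.77 on control and at 5.25, 5.24, 5.54 and 5.39 on knockout arrays (difference -0.46, limma adjusted p 0.0426). For both genes the second probe gave a difference of like size, -0.53 for Cidec and -0.40 for Cideb. Both calls were lost without any 1 of control arrays 1, 3 and 4 or knockout arrays 1, 2 and 4, and that of Cideb without control array 2 also (limma adjusted p 0.0513 to 0.146 over both genes). The droplet coat proteins Plin2 and Plin3 differed by -0.41 (limma adjusted p 0.0779) and -0.28 (limma adjusted p 0.118).

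None of the 4 lipases passed. Lpl, the lipoprotein lipase of vessel walls, gave the widest difference among them, with levels of -0.91, -0.39, -0.98 and -0.92 on control and of 0.05, -0.61, -0.57 and -0.51 on knockout arrays. Knockout array 1 and control array 2 stood above the rest of their groups, and the difference was 0.39 (95% interval -0.02 to 0.80, limma adjusted p 0.271). Lipa, the lysosomal acid lipase, differed by -0.22 (95% interval -0.46 to 0.01) and Pnpla2, the lipase of droplets, by -0.07 (95% interval -0.36 to 0.21). Pnliprp2, a pancreatic lipase-related protein, differed by 0.08 (95% interval -0.37 to 0.53).

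Of the 3 genes for assembly and export of the lipoprotein particle, none passed. Apob, the structural protein of the particle, differed by 0.07 (95% interval -0.31 to 0.45) on the brighter of its 2 probes and by -0.48 on the other, which had a limma adjusted p of 0.136 when every probe was tested. The probes disagree in sign, so no direction is given for Apob. Mttp, the protein that transfers lipid onto it, differed by -0.41 (95% interval -0.66 to -0.15, limma adjusted p 0.0768); control array 2, at 5.99, met knockout array 3, and without control array 2 the limma adjusted p was 0.029. Sar1b, the GTPase of the vesicles that carry chylomicrons, gave the widest difference. It stood at 4.09, 4.12, 3.64 and 3.61 on control and at 3.23, 3.04, 3.42 and 3.59 on knockout arrays. The groups just failed to touch, and the difference of -0.55 with a standard error of 0.16 did not pass (limma adjusted p 0.0983).

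Exchangeable apolipoproteins, the small proteins on the particle surface, fell in 3 of 7 cases. Apoc2, the cofactor of lipoprotein lipase (chromosome 7, 20257027 to 20257086 on mm9), stood at 8.45, 8.34, 8.47 and 8.33 on control and at 7.63, 7.63, 7.98 and 7.65 on knockout arrays. Knockout array 3 was the highest of its group and still below every control, and Apoc2 fell 1.60-fold, a difference of -0.68 (standard error 0.10, limma adjusted p 0.00666). Apoa4, an apolipoprotein made by enterocytes during fat absorption, was at 8.15, 7.89, 8.19 and 7.95 on control and at 7.38, 7.21, 7.68 and 7.47 on knockout arrays. The groups did not overlap, and the difference was -0.61 (standard error 0.12, limma adjusted p 0.0224). Apoc3, which inhibits lipolysis of the particles, was at 8.04, 7.94, 8.01 and 7.88 on control and at 7.32, 7.56, 7.62 and 7.57 on knockout arrays (difference -0.45, limma adjusted p 0.0238). Its second probe, listed under another transcript identifier, differed by -0.67. Without control array 1 or 3, or knockout array 1 or 2, neither Apoa4 nor Apoc3 passed (limma adjusted p 0.0644 to 0.0833). Apoc1 differed by -0.58 without passing (limma adjusted p 0.0859), although its groups did not overlap. The intervals of the remaining 3 included 0: Apoa1, the main protein of high-density lipoprotein, differed by -0.01 (95% interval -0.24 to 0.21), Apoe, a ligand of lipoprotein receptors, by 0.17 (95% interval -0.18 to 0.52) and Apoa5 by 0.01 (95% interval -0.53 to 0.55). Apoa5 was dim: 3 of 4 control arrays and 4 of 4 knockout arrays had it well above background.

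Of the 3 transcription factors, Ppara and Creb3l3 fell and Pparg did not pass. Ppara, the fatty acid receptor that turns on fat oxidation and binding proteins, was at 3.07, 2.68, 2.73 and 2.73 on control and at 2.19, 2.16, 2.42 and 2.32 on knockout arrays. Control array 1 stood above the rest, the groups were apart, and the difference was -0.53 (standard error 0.11, limma adjusted p 0.0282). The other 2 Ppara probes differed by -0.40 and -0.21. Creb3l3, a factor of liver and intestine that acts on apolipoprotein genes, was at 6.80, 6.43, 6.64 and 6.72 on control and at 6.09, 5.88, 6.33 and 6.19 on knockout arrays (difference -0.52, limma adjusted p 0.0429). Neither passed without any 1 of control arrays 1, 3 and 4 or knockout arrays 1, 2 and 4 (limma adjusted p 0.0539 to 0.137). Pparg, the receptor best known from fat cells, was at 1.26, 1.28, 1.16 and 1.16 on control and at 1.88, 1.37, 1.40 and 1.95 on knockout arrays. Its groups did not overlap, but knockout arrays 1 and 4 stood well above the other 2, and the difference of 0.44 with a standard error of 0.14 did not pass (limma adjusted p 0.132).

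**Figure D2:**
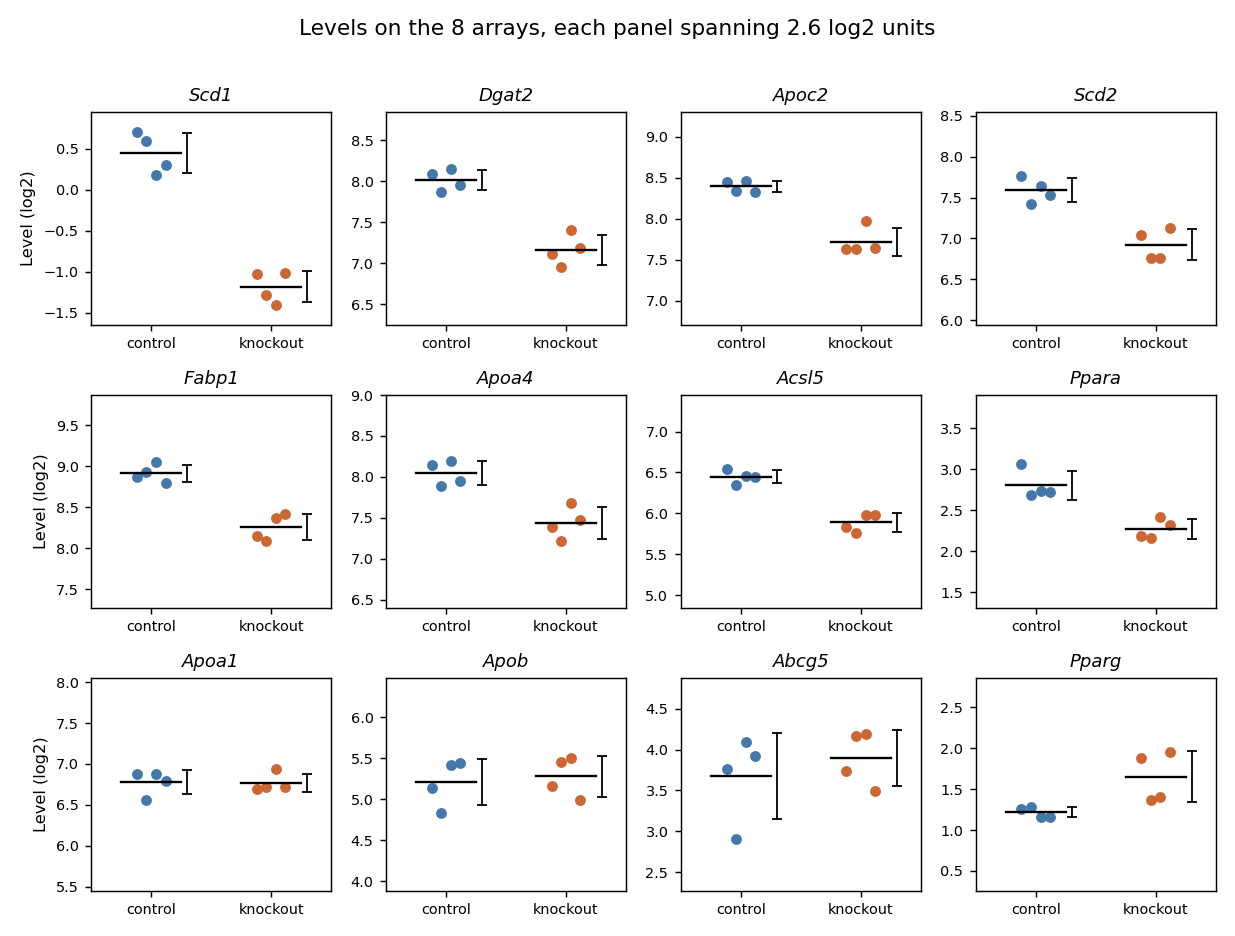
Level of 12 lipid genes on each array in log2 units (y axis) by group (x axis); points are arrays in the order 1 to 4, black lines are means and bars are 1 SD (n = 4). In the upper 8 panels, from Scd1 to Ppara, the 4 knockout points lie below the 4 control points; in the panels of Apoa1, Apob and Abcg5 they overlap, and for Pparg they lie above.

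Arrays differed in a shared way within each group. Control array 2 had the lowest control level for 24 of the 38 genes and a median deviation of -0.15 from the control mean, while control array 1 was highest for 19. Knockout array 2 was the lowest knockout for 23 genes and knockout array 3 the highest for 24, with median deviations of -0.12 and 0.14. Knockout array 3 thus lay nearest to the controls for most of the falling genes, and it remained below every control array for all 15. Without control array 2 there were 15 members past the threshold, though not the same ones: Mttp and Npc1l1 entered, and Fabp2 and Cideb left. Without knockout array 3 there were 14.

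**Figure D3:**
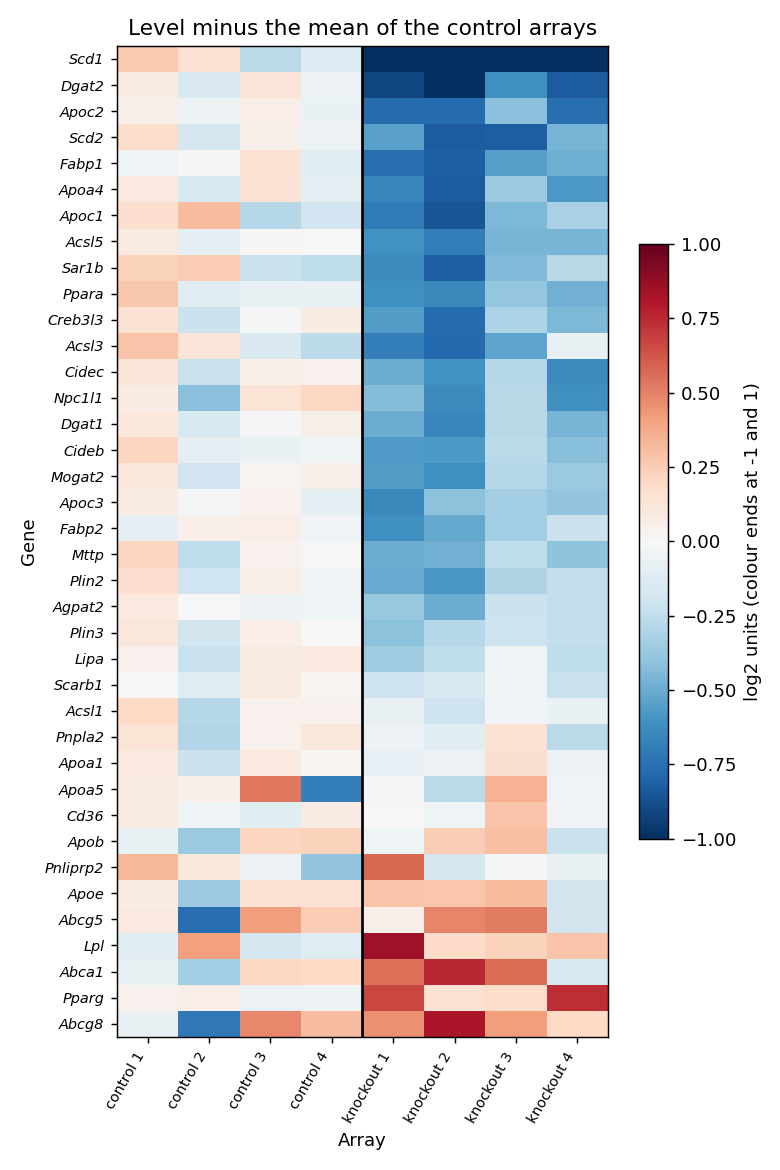
Level of each of the 38 genes (y axis, sorted by difference) on each array (x axis) minus the mean of the control arrays, in log2 units on a colour scale that ends at -1 and 1. The upper rows are blue on all 4 knockout arrays, and for most genes palest on knockout array 3, with Scd2 and Acsl3 among the exceptions.

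The position of an array on the slide was partly tied to its group. Row 1 held control array 1 with knockout arrays 2, 3 and 4, and row 2 held the rest, with 62.8% to 67.1% of probes well above background in row 1 and 57.5% to 63.5% in row 2. Each row had 1 array in one of its groups. Within row 1 the median difference of the 15 falling genes was -0.64 and within row 2 it was -0.58; since no knockout array of these genes overlapped the controls, their sign within a row was fixed in advance. Scd1 differed by -1.95 within row 1 and by -1.38 within row 2. With the row as a block, 10 members were lower past the threshold, and Mogat2, Dgat1, Creb3l3, Cidec and Fabp2 were not (limma adjusted p 0.0574 to 0.0905).

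Some of the genes that lie side by side, or that are paralogs, moved unequally. In all, 15 pairs were computed, chosen after the values were seen, and are described without a test. By the RefSeq gene order, Apoa1, Apoc3, Apoa4 and Apoa5 follow one another with 0 protein-coding genes between. Within each array, the gap between Apoa4 and Apoa1 was 0.60 log2 units smaller on knockout arrays (difference -0.60; SD of the gap 0.08 on control and 0.12 on knockout arrays, n = 4), and the gap between Apoc3 and Apoa1 differed by -0.44. A second cluster holds Apoe, Apoc1 and Apoc2. The gap between Apoc2 and Apoe differed by -0.85 and did not overlap between groups, while the gap between Apoc1 and Apoe differed by -0.76 and did. Such gaps cancel a constant shift between arrays, since both genes are read on the same array. They do not cancel a scaling that depends on brightness.

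Dgat2 and Mogat2 are also direct neighbours, and here both fell, Dgat2 by more: the gap between Mogat2 and Dgat2 differed by 0.40. Scd1 fell further than Scd2 (difference of the gap -0.96), Dgat2 further than Dgat1 (-0.38), Acsl5 further than Acsl1 (-0.46) and Fabp1 further than Fabp2 (-0.23). The arrays of the groups did not overlap in any of these 4 gaps. How often the groups do not overlap in the gaps of other gene pairs was not computed. For Cidec against Cideb the gap differed by -0.05, for Acsl5 against Acsl3 by -0.04 and for Plin2 against Plin3 by -0.12, and these overlapped. Ppara and Pparg lay in opposite directions, with a gap that differed by -0.97.

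The promoter windows were searched for 8 motifs on both strands, over the 250 bases before and 50 after each annotated start. Windows of 29 of the 38 members, 9 of them among the 15 that fell, were matched by symbol in the RefSeq table; those of Scd1, Scd2, Dgat1, Dgat2, Mogat2, Apoc1, Apoc3, Lpl and Scarb1 were not used here. A direct repeat bound by nuclear receptors such as PPARα and HNF4α, with the letters AGGNCA, any base N and AGGNCA again, was found in 2 of the 29, Fabp1 and Apoc2, and in 0.451% of all 27025 genes with a window. In Fabp1 it reads TGACCTATGGCCT from base 67 to base 55 before the start, on the opposite strand, and in Apoc2 it reads AGGCCAGAGGTCA from base 122 to base 110, both in capitals in the sequences above. Both windows also hold the HNF1 half-site GTTAAT, which 4 of 29 members and 8.24% of all genes have. The stricter HNF4 letters CAAAGTCCA were in 0 of 29 members and 0.555% of all genes.

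The other motifs were each found in 1 to 14 of the 29 members. The TATA box, TATAAA, was in 10 of 29 members and 15.7% of all genes, and the CCAAT box, CCAAT, in 14 and 41.1%. The sterol regulatory element letters TCACNCCA were in 5 members, of which Cidec fell, against 5.0% of all genes, and the CRE core TGACGT was in 1, Mttp, against 8.37%. The RFX half-site GTTGCC was in Agpat2 and Fabp1, 2 of 29, against 14.1% of all genes; in Fabp1 it occurs at 2 places, on the opposite strand. None of these matches overlapped another in the sequences shown, and Apoa4 and Apoa1 held no match in the 250 bases printed. A match says only that the letters are present.

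Other lipid genes outside the 38 were read from a list of 113, of which 104 were tested. In that list 19 fell (18.3%) and 7 rose (6.73%), against 2.6% and 2.32% of all genes tested. The median difference was -0.19, against -0.05 for all genes tested. Without control array 1, 3 or 4 the falls numbered 5, 9 and 8, without knockout array 1, 2 or 4 they numbered 4, 6 and 12, and 8 passed after median centring; the rises numbered 4 without control array 1 or knockout array 1 or 2. Fatty acid oxidation had 5 of 13 genes lower and 1 higher, the regulators 3 of 14 lower, and uptake and binding 4 of 16 lower and 2 higher. Lipid droplet and lipolysis genes outside the 38 had 0 of 11 past the threshold in limma, with 2 higher and 0 lower at an unadjusted p under 0.05. Of all genes tested, 7.65% were higher and 12.8% lower at that unadjusted threshold.

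Insig1, a sterol-sensing protein that restrains the SREBP pathway, fell by 1.20 on the log2 scale, from 2.06 ± 0.35 (SD, n = 4) to 0.86 ± 0.46 (limma adjusted p 0.0283). Slc27a5, a fatty acid transport and bile acid ligase protein, fell by 0.99 (limma adjusted p 0.00148). Hnf4g, a nuclear receptor of the gut epithelium, fell by 0.75 (limma adjusted p 0.0229) and Dbi, the acyl-CoA binding protein, by 0.69 (limma adjusted p 0.0102). Without any 1 array other than control array 3 and knockout array 4, Insig1 did not pass (limma adjusted p 0.0504 to 0.0956), nor did Hnf4g without control array 1 or knockout array 1, 2 or 3 (limma adjusted p 0.0572 to 0.0823).

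Of the 7 genes that rose, 6 are described here. Fabp6, the bile acid binding protein of the ileum, was at 1.67, -0.18, 4.84 and 4.10 on control and at 7.68, 8.13, 7.39 and 7.40 on knockout arrays, a difference of 5.04 (standard error 0.96, limma adjusted p 0.0209). Its control arrays were widely spread and its knockout arrays were close together, without overlap. Clu, a secreted chaperone also called apolipoprotein J, rose by 4.86 (limma adjusted p 2.81e-06), Acsm3 by 1.77 (limma adjusted p 0.00217) and Pdk4, a kinase that spares glucose, by 1.06 (limma adjusted p 0.00404). Apom, an apolipoprotein of high-density lipoprotein, rose by 0.88 (limma adjusted p 0.00324), and Fabp5, the epidermal fatty acid binding protein, by 0.87 (limma adjusted p 0.0426). The call for Fabp6 was lost without control array 1 or knockout array 1 or 2 (limma adjusted p 0.0715 to 0.0743), and that for Fabp5 without any 1 array other than knockout array 3 (limma adjusted p 0.0529 to 0.141). Once slide row was added as a block, Fabp6 (limma adjusted p 0.0509), Insig1 (0.0574) and Fabp5 (0.0884) did not pass.

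Markers of other cells and regions were read beside the lipid genes, and their part in the result was not tested except as given here. For the counts of markers that follow, 2.6% of all genes tested fell and 2.32% rose. Of the 23259 genes tested, 14084 lay below 0 and 9175 above. Of 10 enterocyte markers 2 fell, Lct by 0.75 and Slc2a2 by 0.68, and 8 did not pass. Among those 8 were Vil1 (-0.11), Alpi (-0.05) and Anpep (0.12), and with wider differences Sis (0.42), Slc5a1 (-0.34) and Cdx2 (-0.24). Of the 10, 8 lay below 0 and 2 above, with a median difference of -0.14. The summed level lay between 8.84 and 9.32 on control and between 8.78 and 9.11 on knockout arrays. When every array was centred on the mean of these 10 markers, an alternative chosen after the data were seen, Scd1 (-1.45), Dgat2 (-0.67) and Apoc2 (-0.49) remained past the threshold and the other 12 did not. Their differences all stayed below 0. That centring moved the median of all genes from -0.05 to 0.13, with 146 genes lower and 827 higher, and gave the 38 a median of -0.23.

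Proximal intestine markers were lower for 2 of 5, Gata4 (-0.51) and Lct (-0.75), which is also an enterocyte marker. Of these 5, 4 lay below 0 and 1 above, Cubn (0.48, limma adjusted p 0.26). Pdx1 (-1.09) and Onecut2 (-0.86) had wider differences but did not pass (limma adjusted p 0.0631 and 0.0553). Distal markers were higher for 2 of 5, Fabp6 and Fgf15 (6.55, well above background on 2 of 4 control arrays), with summed levels from 7.62 to 8.03 on control and from 8.49 to 8.83 on knockout arrays. Of the 5, 4 lay above 0 and 1 below, Muc13, which differed by -0.37 (limma adjusted p 0.0647). Muc13 stood at 7.61 to 7.93 on control arrays and carried most of the control sum. Hepatocyte markers, which matter because the liver makes many of these apolipoproteins, were higher for 3 of 12 (Ttr 0.63, Fga 1.48 and Fgb 1.20), with summed levels from 7.49 to 8.16 on control and from 8.25 to 8.47 on knockout arrays. The largest part of that sum was Afp, which differed by 0.57 and did not pass (limma adjusted p 0.152). Of the 12, 10 lay above 0 and 2 below, Serpina1a (-0.08) and Tat (-0.12). Alb differed by 1.71 with a limma adjusted p of 0.417 and was well above background on all 8 arrays. Its level was 1.75 on control array 1 against -3.16 to -1.38 on the other controls, and 1.96 on knockout array 1 against -0.93 to 0.73 on the other knockouts. Ahsg, another hepatocyte marker, was likewise highest on array 1 of each group, at 2.40 and 2.74. Control array 1 was also the highest control for 19 of the 38 lipid genes, and 6 members passed without it, as given above. Knockout array 1 was the highest knockout for 2 of the 38 and lay below the knockout mean for 27. Any link between the hepatocyte markers and the lipid genes was not tested.

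Stomach epithelium markers were higher for 6 of 8, with summed levels from -0.71 to 1.59 on control and from 8.51 to 9.42 on knockout arrays. None of the macrophage, endothelial, exocrine pancreas, smooth muscle or adipocyte markers passed in limma. At an unadjusted p under 0.05 there were 2, both on the macrophage list, Lyz2 with a difference of -0.49 and Cd68 with 0.54. Of all genes tested, 12.8% were lower and 7.65% higher at that unadjusted threshold. Adipoq and Plin1, which define fat cells, were not well above background on any array, nor was the exocrine marker Pnlip.

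**Figure D4:**
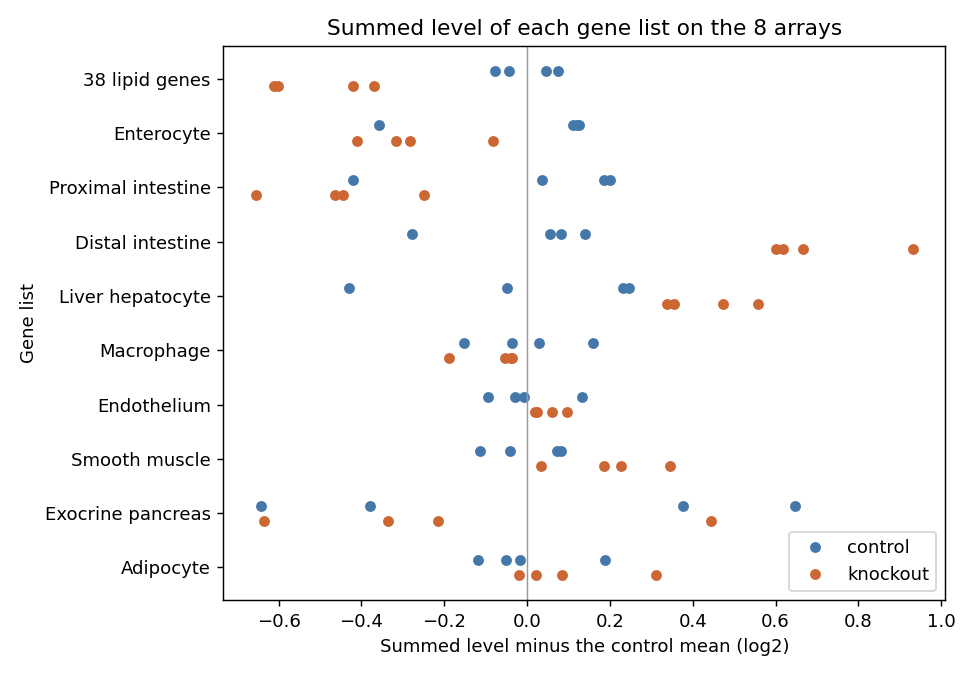
Summed level of each gene list on each array minus the mean of the control arrays, in log2 units (x axis), for the 38 lipid genes and 9 marker lists (y axis); points are arrays, 4 control and 4 knockout. The sum of the lipid genes, which the brightest probes carry, is lower on every knockout array than on any control array. Their median level overlaps (4.03 to 4.29 on control, 3.86 to 4.41 on knockout arrays). The enterocyte points overlap, and the distal and hepatocyte points are higher on the knockout arrays. Of the 12 hepatocyte markers 3 passed, and Afp, the largest part of their sum, did not.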

How the data were processed

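The deposited scanner files give an intensity per spot on a linear scale, from which the authors' Agilent Feature Extraction 10.10.1.1 had subtracted background, per the file headers; the probe grid was built on mm9. The authors' deposited series matrix holds a further intensity per spot whose median is 129.6 on every array; its processing is not given in the sources used here.

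Control spots (3671 of 62976 per array) and outlier spots (153 to 355) were left out, and spots of a probe were averaged, giving 55681 probes. No gene spot was saturated. Log2 signals were centred on the 75th percentile of each array. The probe with the highest mean signal represented each name in the files, and stayed in the test where a whole group, 4 of 4 arrays, had it well above background. Groups were compared over 23259 genes in R 4.3.3 by limma 3.58.1 (lmFit, then eBayes, two-sided, Benjamini-Hochberg threshold 0.05), checked on simulated data. There, 85% of 2-fold and 99% of 4-fold changes were called, with noise independent between genes. Smaller changes, which most of the falling members showed, and noise shared between genes were not simulated. The number of arrays limits the precision.

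Members and lists were chosen with earlier results of these data known. All 38 members are accounted for; per-array values are given for those past the threshold and for the widest difference in each role, and up to 10 further lipid genes past the threshold are named, largest difference first. Alternatives were normexp background (offset 50), quantile and median scaling, no filter, a filter on all 8 arrays, every probe, the mean of probes, the series matrix, slide row and replicate blocks, and leaving out each array.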

Additional observations from a re-analysis of the deposited data

Results flagged for a closer look

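Among the 76 groups of 4 values, 2 for each lipid gene, 9 (11.8%) had 1 array far from the other 3, where chance gives about 1 in 20, or 3.8; genes on 1 array are not independent. Knockout array 3 was high for Cd36, at 2.18 against 1.85 to 1.90 on the other knockout arrays, for Apoa1, at 6.94 against 6.70 to 6.72, and for Apoc2, at 7.98 against 7.63 to 7.65. Control array 2 was low for Lipa, at 1.93 against 2.20 to 2.25, and for Apoe, at 3.95 against 4.38 to 4.46, and high for Lpl, at -0.39 against -0.98 to -0.91. Lpl was also high on knockout array 1, at 0.052 against -0.61 to -0.51. Apoe was low on knockout array 4, at 4.12 against 4.59 to 4.63, and Ppara was high on control array 1, at 3.07 against 2.68 to 2.73. Of these genes, Apoc2 and Ppara are among the 15 that fell. Their cause was not tested.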

How the results depend on the processing

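Over the 15 falling genes and 19 alternatives, 169 of 285 values kept their side of the threshold, 116 did not pass and 0 changed direction, which leaving out arrays could not bring about, as the groups did not overlap. Scd1 and Dgat2 passed under all 19; Apoc2 was lost under 1, Fabp1 under 2, Acsl5 under 3 and Scd2 under 5, and the other 9 genes were lost under 9 to 14 each. The highest limma adjusted p was 0.422 for Fabp2 and 0.298 for Mogat2. The count of falling members was 5 with quantile normalization, 6 with median centring, 5 without the filter and 3 when centred on the enterocyte markers, and 5 to 15 with 1 array left out. In the wider lipid list the falls numbered 8 with median centring, 4 without the filter, 9 with the row block and 2 with the enterocyte centring, and the rises 4 without the filter and 4 with the row block; with 1 array left out they ran from 4 to 18 and from 4 to 7. Over all genes, falls numbered 253 with median centring, 201 without the filter and 146 with the enterocyte centring, and rises 297 without the filter and 827 with the enterocyte centring; leaving out 1 array gave 216 to 586 and 336 to 500. The cause was not tested, except that fewer arrays enter when 1 is left out.

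Deviations of same-numbered arrays had correlations of -0.07, -0.17, 0.07 and -0.41, so a shared number gives no pairing. With a replicate block, 4 members fell, 1 gene of the wider list fell and 4 rose, and over all genes 148 fell and 264 rose.

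Of the 23 members that did not pass, 9 changed sign in some setting, and none of the 9 passed the threshold in any. Apoa1 was 0.0066 with normexp, 0.14 with quantile, 0.053 with median centring, 0.11 from the series matrix and 0.17 with enterocyte centring. With 1 array left out, Apoa1 ran from -0.082 to 0.022. Acsl1 was 0.011 with quantile, 0.0053 from the series matrix and 0.089 with enterocyte centring. Pnpla2 was 0.0027 and 0.11, with quantile and enterocyte centring, and Scarb1 was 0.028 with the latter. Apoa5 was -0.088 with normexp and -0.027 with the row block, and Apob -0.21 as the mean of its probes. With 1 array left out, Apoa5 ran from -0.22 to 0.18, Apob from -0.054 to 0.17, Cd36 from -0.025 to 0.084, Abcg5 from -0.032 to 0.36 and Pnliprp2 from -0.084 to 0.19. Of the 10 further lipid genes named, Clu, Acsm3, Pdk4, Slc27a5 and Apom passed under all 19 alternatives, and none of the 10 changed direction. Without control array 2, Mttp and Npc1l1 passed. The median of the 38 ran from -0.49 with the row block to -0.23 with the enterocyte centring. With 4 arrays per group the precision is set by the number of arrays, and Apoa5 is further limited by a signal near background.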
